A study of Mus musculus with 8 samples.

Results

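MALP2 and IL1b reach a macrophage through different receptors that share the adaptor MyD88, and their transcript levels were compared here gene by gene. MALP2 is a lipopeptide of mycoplasma and a ligand of the Toll-like receptor pair Tlr2 and Tlr6, and IL1b is the cytokine interleukin 1 beta, a ligand of Il1r1 with its partner chain Il1rap. Genes entered when the authors' tables gave them the status OK in the MALP2, the IL1b and the untreated library, which left 36395 of 36806 genes. Of these, 12340 reached 1 FPKM (fragments per kilobase of transcript, scaled to a library total) in either library and were compared.

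Poly(A) RNA was sequenced from bone marrow-derived macrophages of C57BL/6 mice, grown in medium conditioned by L929 fibroblasts, a source of the growth factor CSF1, and taken on day 7 of differentiation. The MALP2 culture received 1 ng/ml and the IL1b culture 10 ng/ml, each for 4 h as the single added agent, and 1 culture was left untreated. The other 5 libraries, from the same kind of cells after 4 h, received IFNg (100 ng/ml), IL4 (10 ng/ml), TNFa (10 ng/ml), TGFb1 (1 ng/ml) or CpG DNA (100 nM), a ligand of Tlr9, and are given for reference. No group had more than 1 library, so differences between groups have no replicate check and no p-value was computed. The doses of MALP2 and IL1b differ, so agent, dose and library cannot be told apart.

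Ligand binding brings MyD88 to the receptor's cytoplasmic TIR domain, and MyD88 recruits the kinases Irak4, Irak1 and Irak2. The ubiquitin ligase Traf6 then passes the signal to the IkB kinases and MAP kinases, which release NF-kB and raise AP-1 activity. In macrophages the pathway is known for transcription of cytokines, chemokines and antimicrobial effectors, and for inhibitors such as the IkB proteins, Irak3 and A20 (Tnfaip3) that limit it.

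Depth can be compared only through low values. The FPKM that a single read adds was 1.45 times that of the untreated library for MALP2 and 1.12 times for IL1b, and 1.28 times larger for MALP2 than for IL1b, so the MALP2 library was the shallower of the pair. The libraries carried the markers of macrophages: Csf1r, the CSF1 receptor, was 1462 FPKM untreated, 1196 after IL1b and 1292 after MALP2, and Cd68 was 1977, 1848 and 1613 FPKM. Lyz2 lacked the status OK. Of 7 lists of markers of other cell types, only the neutrophil list had members at least 2-fold apart, and these are given with the effector genes below. None of 4 measured B cell, 2 T and NK cell, 2 dendritic cell and 9 stromal markers was 2-fold apart, and no mast cell or erythroid marker reached 1 FPKM. Fewer cells of a type and less RNA per cell cannot be told apart in bulk libraries.

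The ratio of MALP2 FPKM + 1 to IL1b FPKM + 1 had to reach 2-fold for a gene to be called higher or lower, and all folds below are on this scale, which understates the difference of low genes. By this rule 446 genes (3.61%) were higher and 330 (2.67%) lower after MALP2 than after IL1b, 6.29% in either direction, and 93.7% lay within 2-fold. The median difference over all genes compared was -0.01 on the log2 scale. The files give error only as a lower and upper confidence bound for each FPKM, at a level they do not state, and 217 of the higher genes (1.76% of those compared) and 151 of the lower genes (1.22%) had bounds that did not overlap. Of the genes past 2-fold, 342 of the higher and 241 of the lower were protein-coding, and 39 and 50 were short RNA types, which poly(A) selection captures poorly. The genes just inside and outside the rule among those with separate bounds were Rasa4 (37.4 FPKM after IL1b, 76.7 after MALP2) and P4ha2 (8.54 and 18.1) on the higher side, and Slk (17.7 and 8.32) and Cdc6 (1.84 and 0.432) on the lower.

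**Figure D1:**
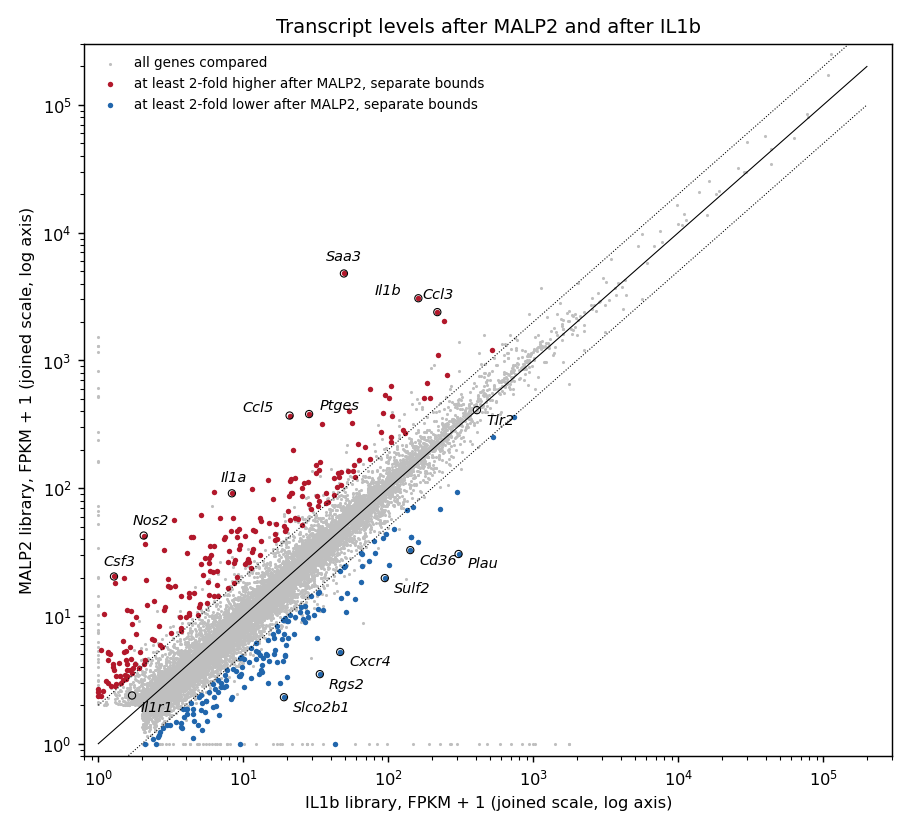
FPKM + 1 of each of the 12340 genes compared in the IL1b library (horizontal, log axis) and the MALP2 library (vertical, log axis), with equality as a solid line and 2-fold as dotted lines. Red points are the 217 genes higher and blue points the 151 genes lower after MALP2 with separate bounds; Saa3, Il1b and Ccl3 lie far above the line, Tlr2 lies on it, and points along the edges are listed at 0 in 1 library.

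Against the untreated library, which both comparisons share, 1217 genes (9.54%) were at least 2-fold higher and 1502 (11.8%) lower after MALP2, and 931 (7.31%) were higher and 1092 (8.57%) lower after IL1b. Of the 217 genes higher after MALP2 than after IL1b, 176 lay at least 2-fold above the untreated library after MALP2 and 52 did so after IL1b. Their median log2 change from untreated was 2.04 after MALP2 and 0.25 after IL1b. The genes were picked for a gap between the agents, and both changes share the untreated library. The direction of the gap between these medians, and between the counts here, therefore follows from the rule. The values show only where each library stood beside the untreated one. Of the 151 lower genes, 81 lay at least 2-fold below untreated after MALP2 and 24 after IL1b, while 41 lay at least 2-fold above it after IL1b and 4 after MALP2. The lower group therefore held genes that MALP2 cultures had less of than untreated ones as well as genes that IL1b cultures had more of. B cell markers summed to 240.3 FPKM in the untreated library and to 40.3 to 74.3 in the other 7 libraries, with Ighm at 124 FPKM untreated, 25.8 after IL1b and 22.3 after MALP2, and their part in the comparisons with untreated was not tested.

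Most transcripts of the receptors themselves lay within 2-fold, as did 93.7% of all genes compared. Tlr2 was 71.8 FPKM untreated, 408 after IL1b and 408 after MALP2, the same level after both agents. Tlr6, the partner of Tlr2 for this lipopeptide, was 9.6, 8.7 and 13.9 FPKM, and Tlr1, the other partner of Tlr2, was 21.9, 28.9 and 66.5 FPKM. The IL1 receptor chains stood far lower: Il1r1 was 0.293 FPKM untreated, 0.709 after IL1b and 1.38 after MALP2, and Il1rap was 1.94, 3.34 and 3.55 FPKM. Il1r1 thus reached at least 1 FPKM after MALP2 but not after IL1b or untreated, and its bounds after the 2 agents overlapped. Il1r2, the decoy receptor of the IL1 family, was 0.116 FPKM untreated, 2.31 after IL1b and 1.72 after MALP2. Il1rl2, the receptor of IL36 cytokines, was 1.73 after IL1b and 3.21 FPKM after MALP2. Cd14, a co-receptor for lipopeptides, was 424 FPKM untreated, 1450.1 after IL1b and 2319 after MALP2. Cd36, a scavenger receptor that also assists Tlr2, differed the other way, with 18.3 FPKM untreated, 141 after IL1b (bounds 109 to 173) and 31.8 after MALP2 (23 to 40.5), 4.33-fold lower after MALP2. Tlr1 and Cd36 were the 1 higher and the 1 lower of 10 receptor chains measured (10.0% each, beside 3.61% and 2.67% of all genes). The bounds of Tlr1 overlapped between the agents.

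The genes of the cascade itself were close to equal. Of 20 measured members, 2 (10.0%) were higher after MALP2 and 0 lower, beside 3.61% and 2.67% of all genes, and their median log2 difference was 0.03. These shares of all genes are the background for every list below. Irak4, which starts the kinase chain, was 18.5 FPKM after IL1b and 18.4 after MALP2, Traf6 was 11.3 and 8.23 FPKM, and Myd88 was 98.8 and 162 FPKM. The higher pair were Irak3, the kinase-inactive inhibitor of the family, with 17 FPKM untreated, 20.7 after IL1b (15.7 to 25.8) and 90.7 after MALP2 (63.8 to 118), and Map3k8 (Tpl2), the kinase that feeds the ERK branch, with 8.88, 4.15 and 15.4 FPKM and overlapping bounds. Irak3 was thus near its untreated level after IL1b and 4.22-fold higher after MALP2. Peli2, a ubiquitin ligase that acts on Irak proteins, was the lowest member at 12.1 FPKM after IL1b and 6.56 after MALP2, within 2-fold.

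Among NF-kB subunits and IkB proteins, 2 of 11 (18.2%) were higher and 0 lower, with a median log2 difference of 0.51. With a pseudocount of 5 this median was 0.45. Rela, the main activating subunit, was 60.6 FPKM untreated, 67.2 after IL1b and 71.5 after MALP2, and Nfkb2 was 30.1, 98.4 and 129 FPKM. Nfkbiz, a nuclear IkB needed for many secondary response genes, differed most, with 4.58 FPKM untreated, 21.8 after IL1b (14.5 to 29.1) and 119.6 after MALP2 (61.9 to 177), 5.29-fold apart. Nfkbia, the inhibitor IkB alpha and a direct NF-kB target, was 53.4, 270.4 and 636 FPKM, so it stood above untreated after both agents and 2.35-fold higher after MALP2, with overlapping bounds. Nfkb1 was 154 FPKM after IL1b and 270.4 after MALP2, and Bcl3 was 70.7 and 112 FPKM, both within 2-fold.

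Of 23 genes of negative feedback, 10 (43.5%) were higher and 1 lower after MALP2, with a median log2 difference of 0.77. Socs3, an inhibitor of cytokine receptor signalling, was 8.91 FPKM untreated, 74.1 after IL1b (36.1 to 112) and 602 after MALP2 (179 to 1024), 8.02-fold apart. Zc3h12a (Regnase-1), an RNase that degrades cytokine transcripts, was 11.8, 32.7 and 159.9 FPKM, and Dusp2, a MAP kinase phosphatase, was 1.42, 7.01 and 31.3 FPKM. Socs1 was 0.861, 1.88 and 10.8 FPKM. These 4 genes had separate bounds between the agents and were at least 2-fold above untreated after MALP2, and all but Socs1 (log2 0.63) were so after IL1b. Tnip3, which binds A20, was instead nearly equal at 55.7 FPKM after IL1b and 63.4 after MALP2, against 4.05 untreated. Atf3, a repressor of inflammatory genes, was 263 FPKM untreated, 129.8 after IL1b and 196 after MALP2, and Tnip1, another partner of A20, was 211 and 393 FPKM. The 1 lower member was Zfp36l2, which was named after its values were seen. It encodes a protein that destabilises AU-rich transcripts and was 99.3 FPKM untreated, 40.5 after IL1b and 18 after MALP2, with overlapping bounds.

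The AP-1 and early response factors held 3 higher members of 19 (15.8%) and 1 lower. Batf was 10.8 FPKM untreated, 6.47 after IL1b and 40.3 after MALP2, and Cebpd, a factor of the acute phase response, was 13.4, 24.5 and 98.6 FPKM. Both had separate bounds. Egr1 was 1.05 FPKM after IL1b and 3.24 after MALP2, and Klf4, the lower member, was 5.17 and 1.95 FPKM. Egr1 and Klf4 also had separate bounds, and on the FPKM + 1 scale their differences sat close to the 2-fold limit.

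The largest differences lay among secreted proteins and antimicrobial effectors. Saa3, an acute phase serum amyloid A (ENSMUSG00000040026, chr7:53967368-53971046 in mm9), was 10.1 FPKM untreated, 48.4 after IL1b (bounds 22.5 to 74.4) and 4795 after MALP2 (1378 to 8212), 97-fold apart. In the other libraries Saa3 was 5446 FPKM after CpG, 187 after TNFa, 21.6 after IFNg, 3.55 after IL4 and 4.45 after TGFb1. The MALP2 and CpG libraries, both from Toll-like receptor ligands, stood far above all 6 others for this gene. Nos2, the inducible nitric oxide synthase (ENSMUSG00000020826, chr11:78734289-78773756), was 0.0539 FPKM untreated, 1.06 after IL1b (0.436 to 1.68) and 41.6 after MALP2 (16.3 to 66.9), 20.7-fold apart. It was 123 FPKM after CpG, 48.6 after IFNg, 1.08 after TNFa, 0.03 after IL4 and 0.0235 after TGFb1, so the MALP2, CpG and IFNg libraries were high and the IL1b library stood with TNFa near 1 FPKM. Both genes, with Il1b, were taken as markers of this comparison with its results known.

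Of 21 measured antimicrobial and acute phase genes, 12 (57.1%) were higher and 0 lower after MALP2, with a median log2 difference of 1.43, which was 0.90 with a pseudocount of 5. Cfb, complement factor B, was 3.94 FPKM untreated, 1.82 after IL1b (1.09 to 2.55) and 31.8 after MALP2 (24.4 to 39.3), within 2-fold of untreated after IL1b and 11.6-fold higher after MALP2 than after IL1b. Lcn2, the siderophore-binding lipocalin 2, was 6.68, 13.8 and 115 FPKM. Chosen after their values were seen, Hp (haptoglobin) was 5.07, 7.5 and 57.1 FPKM and Acod1, the enzyme that makes itaconate, was 6.4, 307 and 1390.4 FPKM. Acod1 thus stood far above untreated after both agents, and its bounds overlapped, whereas Hp was close to untreated after IL1b. Saa1 and Saa3 are related genes that can share reads, so the split between them is uncertain.

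All 9 measured markers of neutrophils were higher after MALP2 than after IL1b, 7 of them within 2-fold. Their median log2 difference was 0.49, beside -0.01 over all genes compared, and the share of positive differences over all genes is not given here. The neutrophil list of 15 summed to 252 FPKM after IL1b and 433 after MALP2, within a range of 196 to 460 over the 8 libraries. At least 2-fold higher after MALP2 were 2 of the 9 (22.2%, beside 3.61% of all genes). These were Csf3r (12 against 57.8 FPKM) and Mmp9 (2.37 against 16 FPKM). Ly6g (0.369 after IL1b, 0.166 after MALP2), Mpo (0.448 and 0.787) and Elane (0.595 and 0.944) were below 1 FPKM in both libraries. Other members of the list were expressed, with Ngp at 25.9 FPKM after IL1b and 34.1 after MALP2, and S100a9 at 85.6 and 121. Camp was 4.06 and 7.74 FPKM, Ltf 2.79 and 4.3, and Mmp8 2.97 and 3.32. S100a8 was 113 FPKM after IL1b and 184 after MALP2, and the part of such cells in the effector genes was not tested.

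Of 21 measured inflammatory cytokine genes, 12 (57.1%) were higher after MALP2 and 1 lower, with a median log2 difference of 1.43, which was 0.64 with a pseudocount of 5 and 2.32 with a floor of 5 FPKM. Il1b itself (ENSMUSG00000027398, chr2:129190306-129201484 in mm9), the cytokine whose protein was the other agent, was 3.93 FPKM untreated, 160.2 after IL1b (79 to 241) and 3067 after MALP2 (636 to 5498), 19-fold apart. In the other libraries it was 3128 FPKM after CpG, 157 after TNFa, 57 after IFNg, 2 after IL4 and 1.08 after TGFb1. Il1b transcript was therefore above untreated in the IL1b library, at the level of the TNFa library, and the MALP2 and CpG libraries were far higher. Il1a, its paralog with the same receptor, was 0.164, 7.34 and 90.2 FPKM, and Il1rn, the receptor antagonist, was 24.4, 219 and 1099.5 FPKM. Both agonists and the antagonist were thus higher after MALP2, the antagonist by 5-fold and Il1a by 10.9-fold. Csf3, the granulocyte growth factor G-CSF, was 0.012 FPKM untreated, 0.282 after IL1b and 19.4 after MALP2, and beyond these it was 11.9 after CpG and listed at 0 in the other 4 libraries. Edn1, which encodes endothelin 1, was 0.0673, 0.0908 and 9.31 FPKM.

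Tnf, which encodes the cytokine given to another of the cultures, was 7.11 FPKM untreated, 185 after IL1b (105 to 264) and 666 after MALP2 (292 to 1040.1), 3.6-fold apart. Cytokines named after their values were seen were Il10, an anti-inflammatory cytokine, with 2.05, 2.03 and 18.4 FPKM, Il6 with 0.0331, 0.832 and 8.8 FPKM, and Il12b, a subunit of IL12 and IL23, with 0.105, 0.47 and 5.34 FPKM. Il10 was at its untreated level after IL1b, and Il6 and Il12b were under 1 FPKM there. The 1 lower gene was Il15, also named after its value was seen, at 10.3 FPKM untreated, 4.21 after IL1b and 1.53 after MALP2. Its bounds overlapped between the agents.

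**Figure D2:**
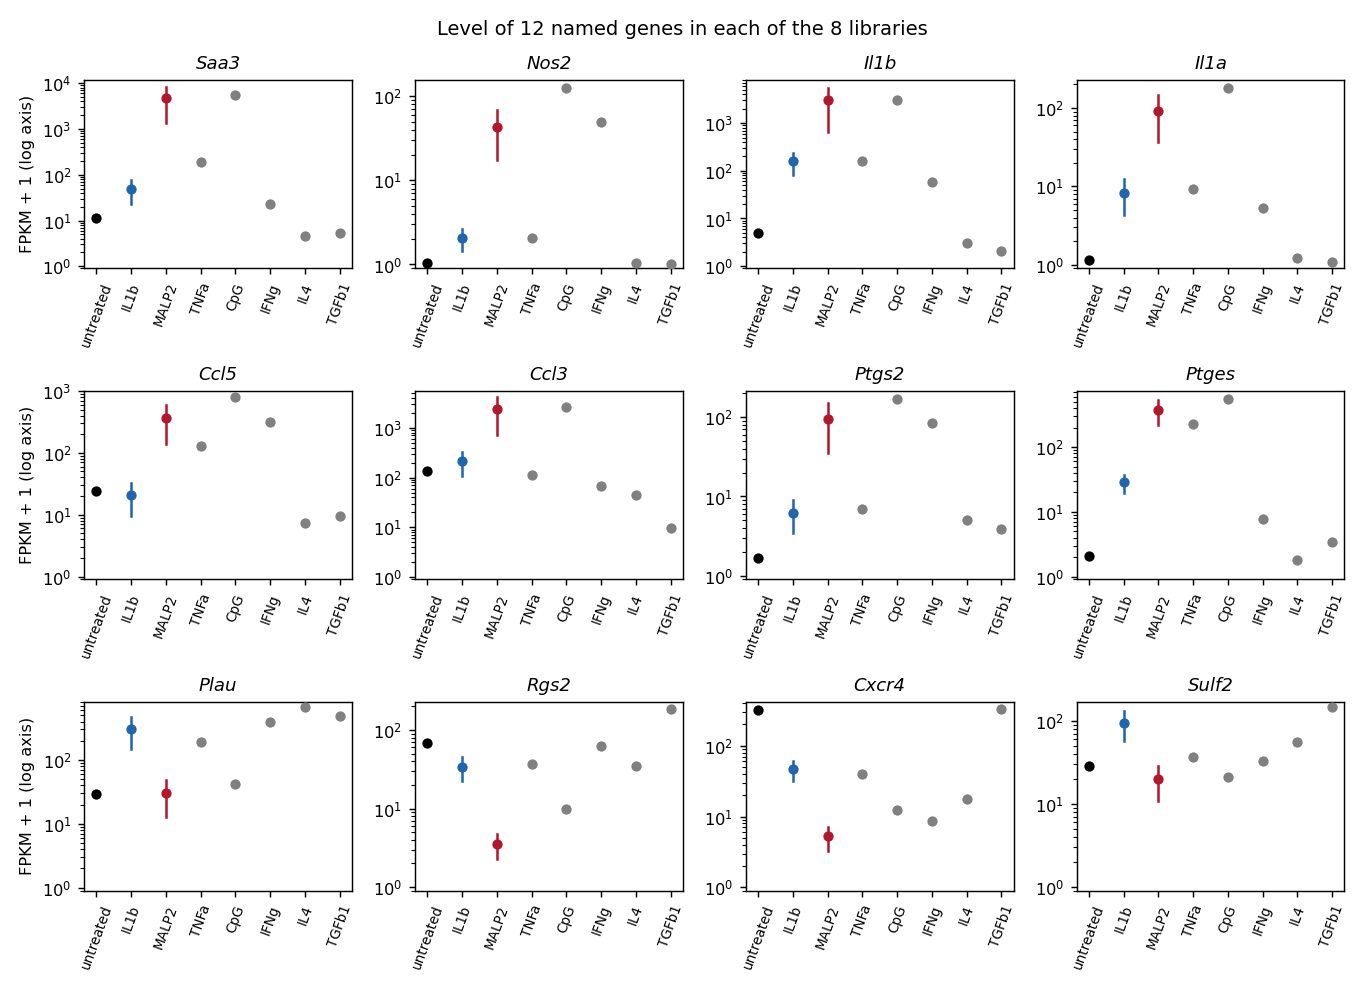
FPKM + 1 (vertical, log axis) of 12 named genes in each of the 8 libraries, 1 point per library, with the authors' bounds as lines for IL1b (blue) and MALP2 (red), untreated in black and the other 5 libraries in grey. The MALP2 point stands above the IL1b point in the upper 8 panels, from Saa3 to Ptges, and below it in the last 4, Plau, Rgs2, Cxcr4 and Sulf2.

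Chemokines split into genes that differed widely and genes that did not. Of 22 measured, 10 (45.5%) were higher and 3 lower after MALP2, with a median log2 difference of 0.87. Ccl5, which attracts T cells and monocytes, was 23.2 FPKM untreated, 19.9 after IL1b (8.65 to 31.1) and 369.5 after MALP2 (138 to 601), so the IL1b library stood at the untreated level. Ccl3 was 134, 217 and 2389 FPKM, and Ccl4 was 112, 242 and 2032 FPKM. These 2 neighbouring genes were 11-fold and 8.38-fold apart. The monocyte chemokines Ccl2 and Ccl7, ligands of Ccr2, were instead close: Ccl2 was 9.07 FPKM untreated, 167 after IL1b and 199 after MALP2, and Ccl7 was 4.52, 128 and 152 FPKM. Ccl6 was 185 FPKM after IL1b and 237 after MALP2. Both agents thus came with Ccl2 and Ccl7 far above untreated and at levels within each other's bounds.

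Cxcl2, Cxcl1 and Cxcl3, which attract neutrophils through Cxcr2, were intermediate. Cxcl2 was 2.04 FPKM untreated, 93.7 after IL1b (47.5 to 140.0) and 536 after MALP2 (199 to 874). The other two were named after their values were seen, with 0.674, 30.5 and 152 FPKM for Cxcl1 and 0.255, 15 and 81.6 FPKM for Cxcl3. All 3 were far above untreated after both agents and 4.86 to 5.67-fold higher after MALP2, with separate bounds. The 3 lower chemokines, named after their values were seen, were Cxcl14 (117 FPKM after IL1b, 47.4 after MALP2), the interferon-responsive Cxcl10 (227 and 101) and Cxcl5 (1.66 and 0.23), of which Cxcl5 alone had separate bounds.

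The promoters of these chemokines and of Il6 are printed because they hold a short form of the NF-kB site and their genes were higher after MALP2 than after IL1b. The motif was GGGNNTTTC, searched on both strands in the 250 bases before each gene's start in the RefSeq promoter table of GRCm38.p6, 1 promoter per gene. The 150 bases up to the start are shown 5′ to 3′ on the gene's strand, with every match in capitals, the first of Cxcl1 being on the opposite strand.
Cxcl1 (chr5:90891095-90891244, plus strand): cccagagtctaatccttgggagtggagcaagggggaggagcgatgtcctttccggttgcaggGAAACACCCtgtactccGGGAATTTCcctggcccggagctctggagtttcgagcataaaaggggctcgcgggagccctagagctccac
Cxcl2 (chr5:90903749-90903898, plus strand): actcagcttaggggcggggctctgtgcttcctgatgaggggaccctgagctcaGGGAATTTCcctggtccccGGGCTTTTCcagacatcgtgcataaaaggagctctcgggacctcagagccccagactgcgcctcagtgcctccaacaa
Cxcl3 (chr5:90785951-90786100, plus strand): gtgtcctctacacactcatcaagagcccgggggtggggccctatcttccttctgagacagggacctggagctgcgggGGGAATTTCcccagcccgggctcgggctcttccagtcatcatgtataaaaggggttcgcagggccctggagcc
Il6 (chr5:30012964-30013113, plus strand): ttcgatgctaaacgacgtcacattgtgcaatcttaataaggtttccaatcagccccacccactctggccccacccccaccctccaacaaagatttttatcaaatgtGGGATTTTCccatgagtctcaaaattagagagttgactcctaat
The motif was found in 19 of 276 higher genes with a promoter in the table (6.88%), in 8 of 189 lower genes (4.23%), in 3.61% of 8126 genes compared and in 3.79% of all 27025 promoters. The 19 also included the feedback genes Nfkbia and Tnfaip3 and the receptor gene Marco, and the 8 included Cxcr4 and Mcm2. A GAAANNGAA motif, a form of the interferon-stimulated response element, was found in 11.2% of higher genes, Saa3 and Ccl3 among them, in 6.88% of lower genes and in 6.49% of genes compared. TGANTCA, an AP-1 form, was found in 6.88% of higher and 10.6% of lower genes and in 4.38% of genes compared. None of the printed matches overlapped a match to another of the 4 motifs searched. The motifs were chosen with results of these data known, the shares are descriptions of letters in a window, and Nos2 and Ccl5 were not in the table.

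A pair of enzymes that act in turn to make prostaglandin E2 stood far apart. Of 15 genes for prostaglandins and lipid mediators, 3 (20.0%) were higher after MALP2 and 0 lower, with a median log2 difference of -0.06 that turned to 0.40 with a floor of 5 FPKM. Ptgs2, the inducible cyclooxygenase COX-2, was 0.665 FPKM untreated, 5.26 after IL1b (2.48 to 8.03) and 93 after MALP2 (34.4 to 152). Ptges, the inducible prostaglandin E synthase that follows it, was 1.06, 27.4 and 379.5 FPKM, and 230.2 FPKM after TNFa and 555 after CpG. Both were at least 13.4-fold higher after MALP2 than after IL1b, and for Ptges the TNFa library was also high. Ch25h, which makes 25-hydroxycholesterol, was 3.23, 78.5 and 221 FPKM, with overlapping bounds, and the receptor gene Ptger4 was 11.9 after IL1b and 23.3 FPKM after MALP2.

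Several receptors for microbial and inflammatory signals were among the 15 highest genes. Fpr1, a receptor of formylated bacterial peptides, was 0.467 FPKM untreated, 2.33 after IL1b (0.911 to 3.74) and 54.9 after MALP2 (21.9 to 87.9), and its relative Fpr2 was 0.475, 1.13 and 18 FPKM. Marco, a scavenger receptor for bacteria, was 0.0648, 0.501 and 19 FPKM. These 3 receptors were low untreated and after IL1b. Over the list of 27 innate surface receptors, 4 (14.8%) were higher and 3 (11.1%) lower. The lower ones included Tlr13, a sensor of bacterial ribosomal RNA, at 83.6 FPKM after IL1b and 33.1 after MALP2, with overlapping bounds. The remaining genes of the 15 highest were Tnfrsf9 (4-1BB), a costimulatory receptor, with 1.09 FPKM after IL1b and 35.6 after MALP2, Cd38, an enzyme that consumes NAD, with 0.299 and 17.1 FPKM, and the organic anion transporter Slco3a1, with 4.15 and 61.2 FPKM. In the authors' deposited table, all 15 were called different from untreated after MALP2 and 11 of them after IL1b. The calls after IL1b include Cfb, which was lower there than untreated (1.82 against 3.94 FPKM). The 15 were picked by values and bounds of these same libraries, so the calls are no separate support. The share of all genes compared that had such a call is not given here, so the counts have no background.

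Costimulation and adhesion genes differed both ways, 3 of 16 (18.8%) higher and 1 lower. Cd40, which receives help from T cells, was 14.9 FPKM untreated, 54.8 after IL1b and 321 after MALP2, and Itgal, the alpha chain of LFA-1, was 16.2, 60.5 and 222 FPKM. Cd274 (PD-L1) was 8.15 FPKM after IL1b and 20.3 after MALP2, with overlapping bounds. Cd83, a maturation marker, was 58 FPKM untreated, 101 after IL1b (51 to 150.3) and 24 after MALP2 (9.79 to 38.2). It was the lower gene, and its level after IL1b was within 2-fold of untreated (log2 0.78).

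Glycolysis and hypoxia genes were higher after MALP2 in 11 of 25 (44.0%) and lower in 0. Their median log2 difference was 0.89, beside -0.01 over all genes compared. Of the 25 differences, 24 were positive, and the share of positive differences over all genes is not given here. Pfkfb3, which makes the activator of phosphofructokinase, was 23.2 FPKM untreated, 21.1 after IL1b (16 to 26.3) and 197 after MALP2 (146 to 248), 8.95-fold apart with IL1b at the untreated level. Egln3, a hypoxia-responsive prolyl hydroxylase, was 0.708, 5.02 and 28.8 FPKM, and Bnip3 was 9.03, 14.1 and 52.1 FPKM. Ndrg1 differed in that IL1b stood more than 2-fold below untreated and MALP2 within 2-fold of it, at 167 FPKM untreated, 24.3 after IL1b and 86.2 after MALP2. Named after their values were seen, the glucose transporter Slc2a1 was 17.2, 156 and 498 FPKM and the lactate exporter Slc16a3 was 28, 174 and 511 FPKM. For these transporters IL1b was already above untreated and MALP2 higher again.

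Most genes of the type I interferon response lay within 2-fold, as did 93.7% of all genes compared. Of 35 type I interferon response genes, 1 (2.86%) was higher and 3 (8.57%) lower, beside 3.61% and 2.67% of all genes. None of those past 2-fold had separate bounds, and the median log2 difference of the list was 0.19. The lower genes were the antiviral effectors Ifit3 (71.3 FPKM untreated, 56.7 after IL1b, 21.8 after MALP2), Rsad2 (28.2, 36.8 and 16.5) and Ifit2 (30.3, 15.9 and 7.08). Members of the Ifit family can share reads. Zbp1, a nucleic acid sensor, was the higher gene at 32.2 FPKM after IL1b and 73.2 after MALP2, equal to 73.1 untreated. Of 15 genes that IFNg activates, 5 (33.3%) were higher and 0 lower, among them Upp1 (5.24 and 34.5 FPKM), Gbp2 (19.2 and 65.5) and Gbp3 (3.21 and 9.26). Against 4565 FPKM of Gbp2 and 918 of Upp1 in the IFNg library these levels were low, and Gbp genes can share reads.

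Genes of arginine use and alternative activation were higher in 5 of 17 (29.4%) and lower in 0. Il4ra, the IL4 receptor chain, was 90.9 FPKM after IL1b (62.9 to 119) and 386 after MALP2 (254 to 518), and Ccl24 was 1.41 and 12.1 FPKM. Arg1, which competes with Nos2 for arginine, was 0.0342 FPKM untreated, 4.78 after IL1b and 18.6 after MALP2 against 1762 FPKM after IL4, and Ass1, which regenerates arginine, was 5.65 and 20.3 FPKM. For Arg1 and Ass1 the bounds overlapped. Apoptosis and survival genes were higher in 3 of 23 (13.0%), namely Traf1 (45.9 and 132 FPKM), Casp4 (8.03 and 19) and Bcl2a1b (118 and 304). Bcl2a1b had overlapping bounds and can share reads with its near-identical copies. Fas was 18.6 and 37.7 FPKM, just within 2-fold. For sterol synthesis and efflux the median log2 difference was -0.21, and 1 of 20 members was higher and 0 lower. The higher gene was the cholesterol exporter Abca1 (22.9 and 53.3 FPKM), with overlapping bounds. Insig1 (104 and 56.8 FPKM), Mylip (10.7 and 5.74) and Idi1 (9.87 and 5.42) were within 2-fold.

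**Figure D3:**
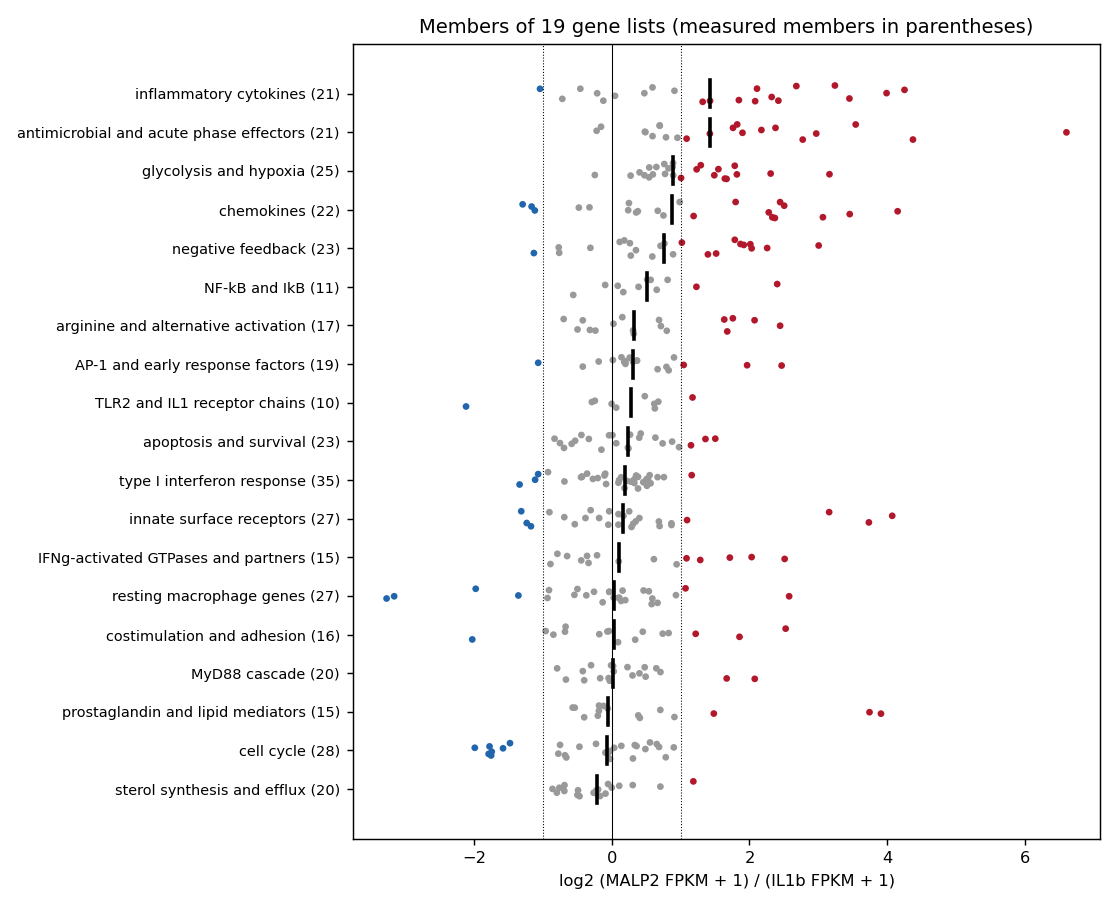
Log2 difference between the MALP2 and IL1b libraries for each measured member of 19 gene lists (points, with vertical jitter), with the median of each list as a black bar and 2-fold as dotted lines. Inflammatory cytokines and antimicrobial genes have medians of 1.43 each, the MyD88 cascade is centred at 0.03, and the cell cycle list holds a separate cluster of 7 lower genes.

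Genes lower after MALP2 formed a different set. Plau (ENSMUSG00000021822, chr14:21655884-21662610 in mm9), which encodes the protease urokinase, was 28.7 FPKM untreated, 304 after IL1b (145 to 463) and 29.5 after MALP2 (11.8 to 47.3), 9.99-fold lower. It was 189 FPKM after TNFa, 41.7 after CpG, 389.8 after IFNg, 663 after IL4 and 481 after TGFb1. The MALP2 and CpG libraries were near the untreated level and every other stimulated library stood well above it. Cgnl1, a junction protein gene, was 6.34, 31 and 5.73 FPKM, and Sulf2, a sulfatase that edits heparan sulfate, was 28, 93.6 and 18.8 FPKM. Like Plau, both stood above untreated after IL1b and near it after MALP2.

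Cxcr4 (ENSMUSG00000045382, chr1:130484776-130488870), the receptor of CXCL12, was 320.1 FPKM untreated, 45.6 after IL1b (30.7 to 60.4) and 4.22 after MALP2 (2.3 to 6.15), below untreated with both agents and 8.92-fold lower after MALP2. It was 38.8 FPKM after TNFa, 11.5 after CpG, 7.74 after IFNg, 16.8 after IL4 and 328 after TGFb1, so the MALP2 library was the lowest of the 8. Rgs2, which dampens G protein signalling, was 66.4, 32.7 and 2.5 FPKM, and Arhgap18 was 31.5, 16.8 and 1.99 FPKM. Rgs2 was at the 2-fold limit below untreated after IL1b and further below it after MALP2 (log2 -4.27). Slco2b1, an anion transporter, was 14.5, 18.1 and 1.31 FPKM, Cytip was 9.02, 13.7 and 1.99 FPKM, and Cd300lf, an inhibitory receptor, was 48.2, 50.3 and 9.81 FPKM. For these 3 and Arhgap18 the IL1b library was within 2-fold of untreated and the MALP2 library more than 2-fold below it. Hmga2, a chromatin protein, is given with the results for a closer look.

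Among 27 genes typical of resting macrophages, 4 (14.8%) were lower and 2 (7.41%) higher, with a median log2 difference of 0.03. Besides Rgs2 and Cxcr4, the lower ones were Tgfbr1, a TGFb receptor, with 11.4 FPKM untreated, 16.2 after IL1b and 3.37 after MALP2, and Mertk, a receptor for dying cells, with 23.1, 4.55 and 1.17 FPKM. Mertk was the 1 of 11 macrophage markers past 2-fold. Fcgr2b, the inhibitory Fc receptor, was higher, with 139, 104 and 625 FPKM. Among the macrophage markers, Spi1 (759 and 1257 FPKM) and Adgre1 (560.2 and 923) were within 2-fold. The 12 lowest genes by rule included Gm23100, a small nuclear RNA gene, and Gm11382, a pseudogene, both listed at 0 after MALP2 and at 41.9 and 8.45 FPKM after IL1b, so no fold is given. In the authors' deposited table, 6 of the 12 lowest were called different from untreated after MALP2 and 5 after IL1b, in either direction. These calls too rest on the libraries from which the genes were picked, and they too have no share of all genes beside them.

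The subunits of the replicative helicase stood out in the cell cycle list. Of 28 measured members 7 (25.0%) were lower after MALP2 and 0 higher, and 6 of those 7 were Mcm2 to Mcm7, the whole ring that unwinds DNA in S phase. Mcm2 (ENSMUSG00000002870, chr6:88833469-88848774 in mm9) was 8.06 FPKM untreated, 18.4 after IL1b (8.99 to 27.8) and 3.9 after MALP2 (1.41 to 6.38), 3.96-fold lower. It was 19.7 FPKM after TGFb1, 9.33 after IL4, 4.49 after CpG, 4.13 after TNFa and 3 after IFNg, so the IL1b and TGFb1 libraries stood above the others and MALP2 among the low ones. Mcm6 was 25.8 FPKM untreated, 50.9 after IL1b and 14.1 after MALP2, Mcm4 was 7.19, 13.9 and 3.45 FPKM, and Mcm7 was 7.59, 10.2 and 2.29 FPKM. Mcm5 (11.1, 25.8 and 7.99 FPKM) and Mcm3 (21.4, 41.2 and 14.2) were named after their values were seen. Between the agents 5 of the 6 had separate bounds, and those of Mcm3 overlapped. Against untreated, Mcm2 (log2 1.10) and Mcm5 (1.15) were at least 2-fold higher after IL1b and Mcm7 (-1.38) at least 2-fold lower after MALP2, and the other differences of these genes from untreated were within 2-fold. In the authors' deposited table Mcm2 (q-value 0.295 for MALP2 and 0.116 for IL1b) and Mcm6 (0.393 and 0.209) were called in neither comparison with untreated. The same table called Mcm7 for MALP2 (0.000765) but not for IL1b (0.449), and Mcm4 for IL1b (0.0216) but not for MALP2 (0.0641).

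The other 21 measured members of the list were within 2-fold. The seventh lower gene was Ccnd1, cyclin D1, named after its value was seen, with 12.4 FPKM untreated, 227 after IL1b (111 to 344) and 67.4 after MALP2 (28.5 to 106), above untreated with both. Pcna, the sliding clamp of the replication fork, was 149 FPKM after IL1b and 108 after MALP2. The mitotic genes Top2a (5.99 and 5.56 FPKM), Ccnb1 (1.27 and 1.23) and Cdk1 (25.3 and 21.4) were nearly equal, and Birc5 (5.9 and 11.9) was higher after MALP2 but within 2-fold. These 5 were also named after their values were seen.

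**Figure D4:**
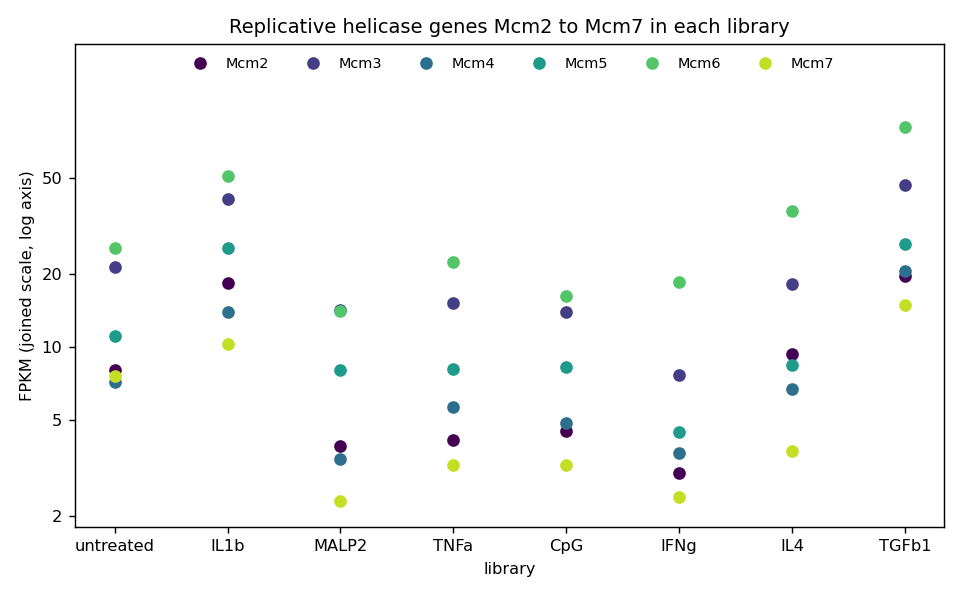
FPKM (vertical, log axis) of Mcm2 to Mcm7 in each of the 8 libraries, 1 point per gene and library. All 6 genes are higher in the IL1b than in the MALP2 library, and the TGFb1 library holds the highest value of each.

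The promoters of Mcm5 and Mcm6 are printed because they hold the motif TTTGGCGC, a form of the E2F site known from S phase genes, on either strand. The window, table and build are those given above, and capitals mark the matches, that of Mcm5 being on the opposite strand.
Mcm5 (chr8:75109359-75109508, plus strand): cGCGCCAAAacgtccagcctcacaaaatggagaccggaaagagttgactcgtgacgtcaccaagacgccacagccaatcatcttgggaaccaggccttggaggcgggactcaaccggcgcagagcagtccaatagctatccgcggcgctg
Mcm6 (chr1:128359706-128359855, minus strand): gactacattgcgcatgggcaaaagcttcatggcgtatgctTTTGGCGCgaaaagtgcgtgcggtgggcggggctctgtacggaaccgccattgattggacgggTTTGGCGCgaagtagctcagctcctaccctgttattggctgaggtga
The motif was found in 2 of 5 Mcm promoters of the table, in 3 of 189 lower genes (1.59%), in 0 of 276 higher genes, in 0.898% of genes compared and in 0.437% of all promoters. The third of the lower genes was Dtl, and Mcm4 was not in the table.

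The CpG and TNFa libraries, which the comparison does not use, offered the same contrast of a Toll-like receptor ligand with a cytokine, although TNFa does not signal through MyD88. This comparison was added with the data known. Of the 446 genes higher after MALP2 than IL1b, 192 (43.0%) were also at least 2-fold higher after CpG than TNFa and 11 were lower, beside 2.61% higher over all 12340 genes. Of the 217 with separate bounds, 127 (58.5%) were higher and 1 lower, with a median log2 difference of 1.22 between CpG and TNFa. Saa3 (4.85 on the log2 scale for CpG over TNFa), Nos2 (5.89) and Il1b (4.31) were among those higher in both pairs.

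For the genes lower after MALP2 the same counts were smaller, and so was the share over all genes compared (0.81% lower against 2.61% higher). Of the 330, 45 (13.6%) were lower after CpG than TNFa and 16 higher, beside 0.81% lower over all genes compared, and of the 151 with separate bounds 20 (13.2%) were lower and 2 higher. Plau (-2.16), Rgs2 (-1.87) and Cxcr4 (-1.67) were among them, whereas Mcm2 (0.10) and Slco2b1 (-0.56) were within 2-fold and low after both CpG and TNFa. The difference between the shares of higher and lower genes was not tested.

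**Figure D5:**
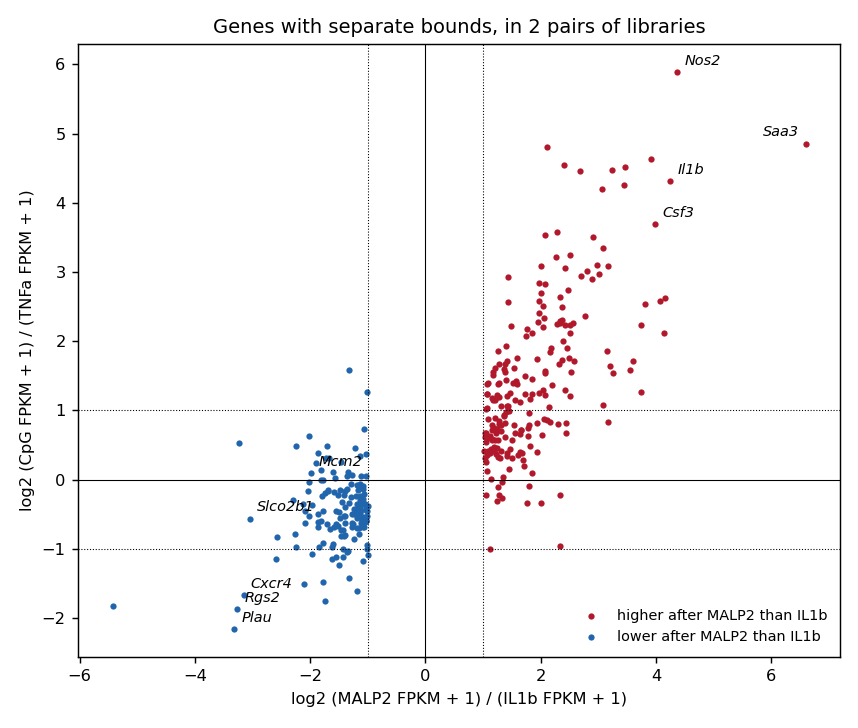
For the genes at least 2-fold apart between MALP2 and IL1b with separate bounds, the log2 difference MALP2 over IL1b (horizontal) and CpG over TNFa (vertical), with 2-fold as dotted lines. Of the 217 genes on the right (red), 127 lie above the upper dotted line, and of the 151 on the left (blue), 20 lie below the lower one.

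Set beside the pairs most like it, more genes lay at least 2-fold apart between MALP2 and IL1b. Between MALP2 and CpG, 88 genes (0.723%) were at least 2-fold higher and 142 (1.17%) lower after MALP2, and between TNFa and IL1b 209 (1.69%) were higher and 154 (1.25%) lower after TNFa. These pairs share the MALP2 or the IL1b library with the main comparison, and the counts are given side by side with no test.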

How the data were processed

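The submitters' processing notes name TopHat 1.3.1, Cufflinks 1.2.1, Cuffdiff 1.2.1 and the build mm9. Whether counting used strand is not stated there or in the labels, so reads of genes that overlap, sense or antisense, cannot be told apart. The authors deposited FPKM with confidence bounds for each stimulated library and the untreated one, per the file headers, and a second table with q-values and calls. Only the second tables of MALP2 and IL1b were used here, and their p-values were not. FPKM divides by a library total, so a few abundant transcripts lower all others.

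The untreated columns of the tables differ by 1 factor each (0.984 for MALP2, 1.01 for IL1b, from 9042 genes of at least 5 FPKM), and each table was divided by its factor. Genes with a status other than OK in any of the 3 libraries (411) were left out. A pseudocount of 1 and a floor of 1 FPKM in either library were used. Symbols came from GENCODE and were found for 31840 genes. Loci are those of the tables in mm9, counted from 1, and promoters are in GRCm38.p6, and coordinates of the builds were not mixed.

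The named genes were the 15 highest and 12 lowest with a symbol and separate bounds, Il1b, Saa3 and Nos2, the 4 members of each list farthest from 0, 7 receptor chains, and the 3 members nearest 0 with at least 50 FPKM in both libraries for 4 lists. The members, 27 lists, rules and alternatives were chosen with earlier results of these data known, and lists overlap in members. No median was computed for lists with under 3 measured members. The counting was tested on simulated data. Other pseudocounts, floors, scalings and gene sets were tried. Python 3.11.15, numpy 2.4.6, pandas 2.3.3 and matplotlib 3.10.9 were used.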

Additional observations from a re-analysis of the deposited data

Results flagged for a closer look

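Hmga2, an architectural chromatin protein, and Gm23100, a small nuclear RNA gene, moved at least 2-fold in opposite ways from the untreated library, and neither difference was tested, since each group was 1 library. Hmga2 was 7.26 FPKM untreated (bounds 2.87 to 11.7), 18.9 after IL1b (9.37 to 28.4) and 2.3 after MALP2 (0.788 to 3.81). Its log2 change was 1.27 with IL1b and -1.32 with MALP2, and the untreated bounds overlapped those after each agent. In the authors' deposited table it was called in neither comparison, with q-values of 0.0527 for IL1b and 0.0590 for MALP2. Gm23100 was 11.6 FPKM untreated (0 to 25), 41.9 after IL1b (10.3 to 73.4) and listed at 0 after MALP2, with bounds of 0 to 0. Its log2 change on the FPKM + 1 scale was 1.77 with IL1b and -3.66 with MALP2. The untreated bounds of Gm23100 overlapped those after IL1b and reached 0, and the authors called it in neither comparison.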

How the results depend on the processing

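The counts depended most on how low genes were treated. With a pseudocount of 0.1, 581 genes were higher and 587 lower after MALP2, and with a pseudocount of 5, 272 were higher and 140 lower. Among genes the authors called in either comparison with untreated, 282 were higher and 178 lower, and 809 genes were higher after MALP2 than untreated with that call. Centring on the median gene gave 1062 genes higher and 928 lower after IL1b than untreated, and 1371 higher and 1312 lower after MALP2 than untreated. No named gene at least 2-fold apart and no list median of at least 0.5 changed direction under the alternatives run. For single genes this was largely fixed in advance, since neither a pseudocount nor a floor can turn the direction of a gene. Of 743 values for 107 named genes, 734 stayed on the same side of the 2-fold limit and 9 crossed it. The 734 include values under other floors and as differences of changes from untreated, settings that leave a gene's value nearly as it was. With a pseudocount of 5, Mertk (log2 -0.63), Ifit2 (-0.79), Rsad2 (-0.96), Klf4 (-0.55), Egr1 (0.44), Gbp3 (0.80), Casp4 (0.88) and Cd274 (0.94) came within 2-fold, and with a pseudocount of 0.1 Fas (1.01) no longer did. Of 133 list medians 129 stayed on the same side of 0.5 and 4 crossed it. That of NF-kB and IkB, 0.51, fell to 0.45 with a pseudocount of 5 and to 0.47 with FPKM as deposited. With a floor of 5 FPKM, that of the receptor chains rose from 0.27 to 0.62. The median of genes that IFNg activates rose with this floor from 0.10 to 0.94. The medians that stayed above 0.5 with a pseudocount of 5 were 0.64 for inflammatory cytokines, 0.66 for negative feedback and 0.76 for chemokines. Those for glycolysis and hypoxia, at 0.81, and for antimicrobial genes, at 0.90, also stayed above it. Smaller medians turned in sign: that of lipid mediators from -0.06 to 0.40 with a floor of 5 FPKM, and those of the MyD88 cascade, costimulation and resting macrophage lists, each 0.03, to -0.02, -0.02 and -0.01 with FPKM as deposited. No paired analysis was possible because each group was 1 library. Leaving out a library was not run, for the same reason. The shallower MALP2 library limits what can be said of genes near 1 FPKM, which rest on few reads.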
